A study of Rattus norvegicus with 12 samples.

Results

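The insulin and IGF signalling genes described here are 9 genes measured in pancreatic islets of rat offspring: Insr, Igf1r, Irs1, Irs2, Foxo1, Akt2, Pik3r1, Grb14 and Igfbp5. They were chosen by gene symbol, with earlier results of these data known. All 9 were found, each as 1 of the 17407 gene entries of the deposited table. Islet RNA was sequenced from 12 Sprague-Dawley offspring at 15 weeks of age, in 4 groups of 3 libraries. The GDM-HFS and GDM-LF groups came from dams in which gestational diabetes mellitus (GDM) was induced with a high-fat, high-sucrose (HFS) diet of 45% fat, and the Lean-HFS and Lean-LF groups from dams on a low-fat (LF) diet of 10% fat. There were 6 dams per diet, the dams were fed for 6 weeks before mating and through pregnancy and suckling, and the sires ate the LF diet. The second part of each group name is the diet, HFS or LF, on which the pups were kept for 12 weeks after weaning. GDM here means a diet given to the dam, so the dam's fat and sugar intake and its glucose tolerance cannot be told apart. The labels used here do not give the litter or sex of each library, so each p-value reflects variation among these libraries alone.

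Insulin and the insulin-like growth factors bind receptor tyrosine kinases, encoded by Insr and Igf1r, which phosphorylate the docking proteins Irs1 and Irs2. These recruit PI3-kinase, whose regulatory subunit is encoded by Pik3r1, and the lipid it makes activates the kinase Akt2. Akt phosphorylates the transcription factor Foxo1 and keeps it out of the nucleus, so FoxO targets are transcribed when insulin signalling is low. Irs2 is itself a FoxO target, Grb14 binds the activated insulin receptor and inhibits it, and Igfbp5 is a secreted protein that binds IGFs. In rodents, Irs2 and Igf1r in islets are known for their parts in beta cell mass and insulin secretion, and Foxo1 for beta cell identity under metabolic stress.

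Levels are read counts scaled to library depth and then to a common median, called scaled values here. They are not divided by transcript length, so they compare libraries for 1 gene. Per kilobase of transcript and averaged over the 12 libraries, the level was 151 for Irs2, 121 for Igf1r and 118 for Akt2. It was 46.4 for Pik3r1, 41.9 for Foxo1, 32.5 for Igfbp5, 15.8 for Insr, 10.3 for Irs1 and 3.25 for Grb14. Irs2 stood above 82.8% of the 12339 tested genes on this scale and Grb14 above 14.5%. Insr had a per-kilobase level well below that of Igf1r in these islets. All 9 genes passed the filter for testing, a mean scaled value of at least 1.

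The libraries held 11469290 to 27492858 gene reads. All 6 islet hormone genes listed were above 0 in every library, as were all 16 acinar marker genes, which mark the exocrine cells that surround islets. The ribosomal RNA (rRNA) that stayed in the libraries made up 1.84% to 4.34% of gene reads in GDM-HFS, 7.0% to 8.55% in GDM-LF, 24.7% to 39.0% in Lean-HFS and 1.84% to 30.4% in Lean-LF. Libraries also differed in the balance of short and long transcripts. A length measure, the median log2 deviation of transcripts under 1000 bases minus that of transcripts over 4000 bases, ran from 0.29 to 0.74 in GDM-HFS and from -0.07 to 0.56 in GDM-LF. It ran from -0.31 to -0.10 in Lean-HFS and from -0.73 to -0.08 in Lean-LF. It was above 0 in 5 of 6 libraries of GDM dams and in 0 of 6 of lean dams. Every library of GDM dams lay above every library of lean dams, the closest being GDM-LF 1 at -0.067 and Lean-LF 3 at -0.079.

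Of the 9 genes, 3 were lower in offspring of GDM dams than in offspring of lean dams when both weaning diets were averaged: Foxo1, Irs2 and Igf1r. None was higher. Foxo1 was 1.91-fold, Irs2 1.81-fold and Igf1r 1.74-fold lower (limma, Benjamini-Hochberg adjusted over all tested genes). In bulk islet RNA, fewer cells of a type and less RNA per cell cannot be told apart. In the same comparison 5.43% of all tested genes were lower and 6.13% higher. Over the 9 genes the median log2 fold change was -0.49, against 0.03 over all tested genes. In limma, neither weaning diet on its own gave a member past the threshold, while DESeq2 called these 3 genes and others on the LF diet. All 3 calls for the average were lost with rRNA as a covariate, with the acinar level as a covariate, and without 3 libraries whose names carry the letter K. These are GDM-HFS 3, GDM-LF 1 and GDM-LF 2, and without them GDM-LF 3 is alone in its group. The letter, whose meaning the labels used here do not give, thus occurs in 0 libraries of lean dams. The rRNA covariate, here and below, was the log2 scaled value of the rRNA entry Rn45s, from 13.7 to 21.5, not the percentage of reads. With the rRNA covariate no gene of the whole table passed, and with the acinar covariate fewer passed than the 1426 without a covariate.

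**Figure D1:**
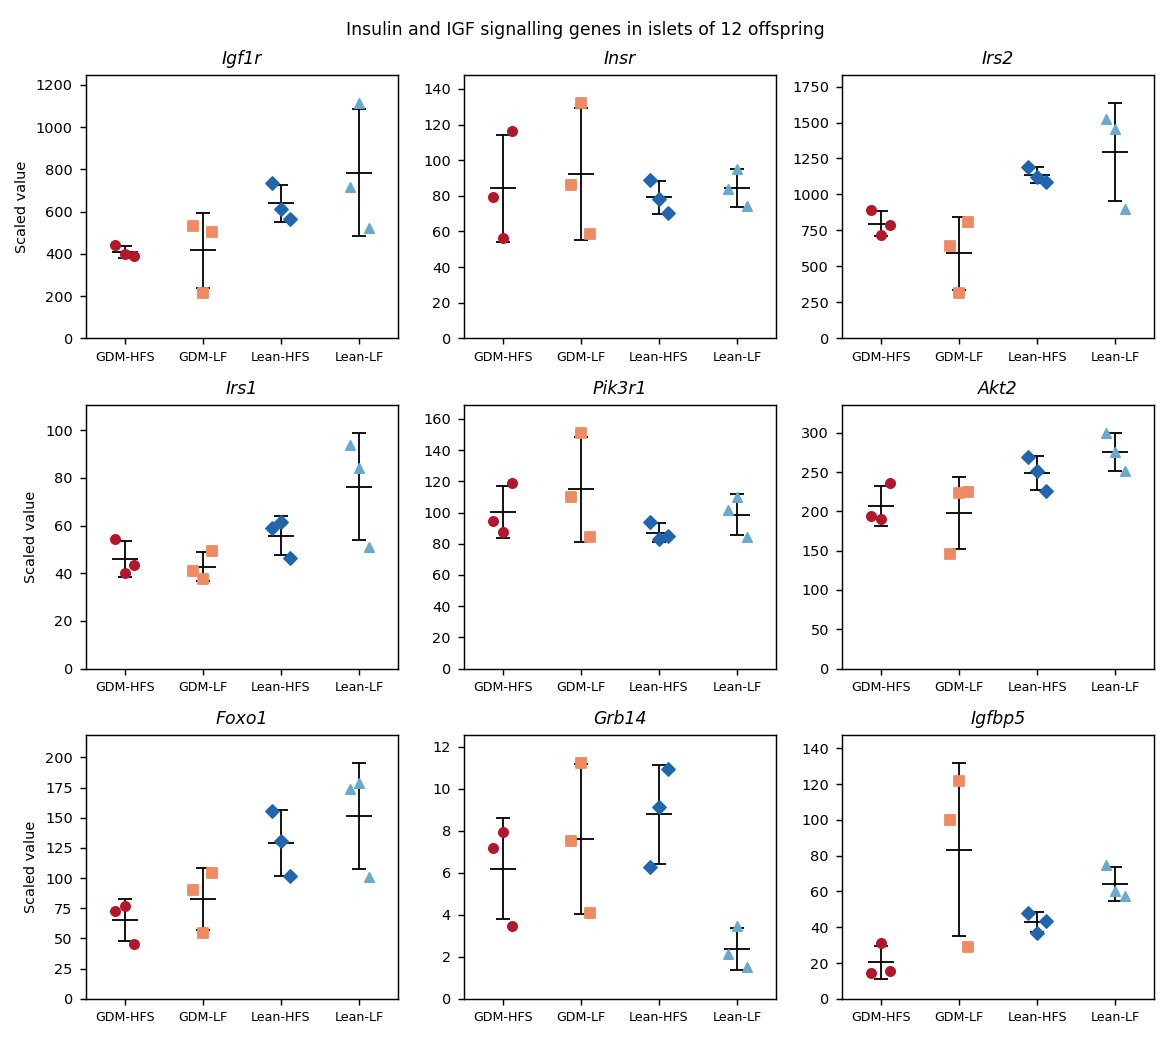
Scaled values (vertical axes, starting at 0) of the 9 genes in the 12 libraries; points are libraries, horizontal lines the mean and error bars the SD over 3 libraries, with groups in the order GDM-HFS, GDM-LF, Lean-HFS and Lean-LF. Irs2 has all 6 libraries of GDM dams below all 6 of lean dams, Igfbp5 is lowest in GDM-HFS at 20.3 ± 9.45, and Grb14 is lowest in Lean-LF at 2.37 ± 1.01.

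Of the receptors, Igf1r was lower in offspring of GDM dams and Insr did not pass the test. Igf1r (chromosome 1, 129985804 to 130265822 on rat build rn5, as for all genes here, plus strand, transcript of 4665 bases) encodes the receptor for IGF1 and IGF2. It stood at 440.3, 397 and 391 in GDM-HFS, at 534, 213 and 502 in GDM-LF, at 736, 615 and 566 in Lean-HFS, and at 716, 1116 and 524 in Lean-LF. Averaged over diets it was lower in offspring of GDM dams, with a log2 fold change of -0.79 ± 0.23 (SE, adjusted p = 0.0408). This call was the least stable of the 3: it held in 10 of 26 alternatives and in 3 of 12 fits with a library left out, and the adjusted p was 0.114 with the acinar covariate, 0.998 with the rRNA covariate and 0.234 without the K libraries. On the HFS diet the 3 GDM libraries lay below the 3 lean ones, while on the LF diet GDM-LF 1, at 534, lay above Lean-LF 3, at 524. The lowest value, 213, was in GDM-LF 2, the library with the highest acinar marker level.

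Insr (chromosome 12, 3852577 to 3989125, minus strand, 5375 bases) encodes the insulin receptor. It stood at 79.3, 56.6 and 117 in GDM-HFS, at 85.8, 132 and 58.6 in GDM-LF, at 88.7, 78.0 and 70.6 in Lean-HFS, and at 83.9, 95.2 and 74.3 in Lean-LF. The groups overlapped in every comparison. The log2 fold change for GDM against lean dams, averaged over diets, was 0.04 with a 95% interval from -0.41 to 0.50 (adjusted p = 0.908). The spread was wider among offspring of GDM dams, at 84.1 ± 30.3 in GDM-HFS and 92.2 ± 37.2 in GDM-LF, against 79.1 ± 9.12 in Lean-HFS and 84.5 ± 10.5 in Lean-LF (SD, n = 3 each). The difference in spread was not tested.

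The promoters of both receptors are shown because Igf1r was called and Insr was not, a difference between them that was not tested, and because a FoxO binding sequence was found in 1 of them. These are the 250 bases before the start of each gene, 5′ to 3′ on the gene's strand, from RefSeq on build GRCr8, for Insr at chr12:6128804-6129053 (minus strand) and for Igf1r at chr1:130959747-130959996 (plus strand), with a match to GTAAACA or its reverse complement TGTTTAC in capitals.
Insr: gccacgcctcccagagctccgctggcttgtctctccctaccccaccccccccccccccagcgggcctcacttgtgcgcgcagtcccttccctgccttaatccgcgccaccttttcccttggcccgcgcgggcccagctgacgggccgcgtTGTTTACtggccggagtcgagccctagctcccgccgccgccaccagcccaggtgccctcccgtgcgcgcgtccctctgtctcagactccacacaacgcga
Igf1r: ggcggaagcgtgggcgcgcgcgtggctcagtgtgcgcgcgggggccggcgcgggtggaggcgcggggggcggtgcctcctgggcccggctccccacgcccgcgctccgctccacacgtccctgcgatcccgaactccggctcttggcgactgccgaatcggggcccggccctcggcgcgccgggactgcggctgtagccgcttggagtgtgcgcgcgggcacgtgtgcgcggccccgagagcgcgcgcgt
The match in Insr lies 100 to 94 bases before the start and is in the TGTTTAC form. GTAAACA was searched on both strands in 33469 promoters of the same length and was found in 3.21% of them. A second sequence, TGTTTTG or CAAAACA, was found in 5.46% of promoters and in none of the 8 members with a promoter entry. A match describes these letters only and does not show that FoxO binds there. The promoter of Igf1r held 79.6% G and C and 45 CG pairs, and that of Insr held 71.2% and 24.

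Of the docking proteins, Irs2 separated all libraries by dam and Irs1 did not. Irs2 (chromosome 16, 83287185 to 83311239, plus strand, 6297 bases) stood at 889, 720.3 and 785 in GDM-HFS, at 645, 316 and 810.5 in GDM-LF, at 1192, 1123 and 1084 in Lean-HFS, and at 1525, 1457 and 901 in Lean-LF. All 6 libraries of GDM dams lay below all 6 of lean dams, a pattern that 2.32% of tested genes showed in this direction and 2.8% in the other. The gap was narrow, from 889 in GDM-HFS 1 to 901 in Lean-LF 3. The log2 fold change averaged over diets was -0.85 ± 0.21 (SE, adjusted p = 0.0233). The call held in 16 of 26 alternatives and in 7 of 12 fits with a library left out, and not with the acinar covariate, the rRNA covariate or without the K libraries (adjusted p = 0.0585, 0.998 and 0.203). By diet it was -0.51 ± 0.29 for HFS-weaned offspring (adjusted p = 0.452) and -1.20 ± 0.29 for LF-weaned offspring (adjusted p = 0.0517). The difference between these effects was 0.69 ± 0.41 and did not pass the test (interaction, adjusted p = 0.805).

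Irs1 (chromosome 9, 87782499 to 87835248, minus strand, 5350 bases) encodes the other main docking protein. It stood at 54.4, 40.2 and 43.3 in GDM-HFS, at 41.0, 37.6 and 49.5 in GDM-LF, at 59.1, 61.7 and 46.4 in Lean-HFS, and at 93.7, 84.4 and 50.8 in Lean-LF. On the LF diet all 3 GDM libraries lay below all 3 lean ones, while on the HFS diet the groups overlapped. Averaged over diets the log2 fold change was -0.53 ± 0.18 and missed the threshold (SE, limma adjusted p = 0.0709). With the count tests on recovered reads it passed, with adjusted p = 0.0481 in edgeR and 0.0348 in DESeq2.

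Neither Akt2 nor Pik3r1 passed the test. Akt2 (chromosome 1, 85627946 to 85666362, plus strand, 1968 bases) encodes the Akt kinase best known for insulin-stimulated glucose uptake. It stood at 195, 189.9 and 236 in GDM-HFS, at 145, 224 and 225 in GDM-LF, at 269.8, 251 and 226 in Lean-HFS, and at 299.8, 275 and 252 in Lean-LF. Its log2 fold change for GDM against lean dams was -0.38 ± 0.13, with a 95% interval from -0.67 to -0.10 (SE, limma adjusted p = 0.0712). On the LF diet the 3 GDM libraries lay below the 3 lean ones.

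Pik3r1 (chromosome 2, 50895264 to 50965217, minus strand, 2159 bases) stood at 94.6, 87.5 and 119 in GDM-HFS, at 109.9, 151 and 84.2 in GDM-LF, at 94.1, 82.8 and 84.7 in Lean-HFS, and at 101, 110.0 and 84.3 in Lean-LF. The groups overlapped in every comparison. The log2 fold change for GDM against lean dams was 0.19, with a 95% interval from -0.15 to 0.52 (adjusted p = 0.431). Across the 12 libraries Pik3r1 varied with Insr, with a Pearson correlation of 0.88. Both were highest in GDM-LF 2, at 151 for Pik3r1 and 132 for Insr.

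Foxo1 (chromosome 2, 161140308 to 161215605, plus strand, 2555 bases) had the lowest p among the 9 genes for the dam. It stood at 72.8, 77.2 and 45.6 in GDM-HFS, at 89.9, 54.2 and 104 in GDM-LF, at 156, 131 and 102 in Lean-HFS, and at 174, 179 and 101 in Lean-LF. On the HFS diet the groups did not overlap, while on the LF diet GDM-LF 3, at 104, lay above Lean-LF 3, at 101. The log2 fold change averaged over diets was -0.93 ± 0.22 (SE, adjusted p = 0.0204). The call held in 19 of 26 alternatives and in 8 of 12 fits with a library left out, and not with the acinar covariate, the rRNA covariate or without the K libraries (adjusted p = 0.0549, 0.998 and 0.230). It was -0.99 ± 0.30 for HFS-weaned offspring (adjusted p = 0.202) and -0.87 ± 0.30 for LF-weaned offspring (adjusted p = 0.0991).

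The promoter of Foxo1 is shown for comparison with the receptors, since its product binds the sequences searched. It lies at chr2:138462724-138462973 (plus strand, RefSeq, GRCr8), holds no match to either FoxO sequence and is all in lower case.
Foxo1: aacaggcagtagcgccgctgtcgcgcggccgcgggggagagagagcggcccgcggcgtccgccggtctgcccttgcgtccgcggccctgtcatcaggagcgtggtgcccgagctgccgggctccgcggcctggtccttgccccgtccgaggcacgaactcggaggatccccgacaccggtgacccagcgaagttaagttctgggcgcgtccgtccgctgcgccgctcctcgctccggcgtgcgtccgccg
It held 74.4% G and C, with 40 CG pairs. Of the 8 members with a promoter entry, 6 were at or above the 90th percentile of G and C over all promoters, which is 68.4%, while Akt2 had 48.4% and Igfbp5 51.6%.

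**Figure D2:**
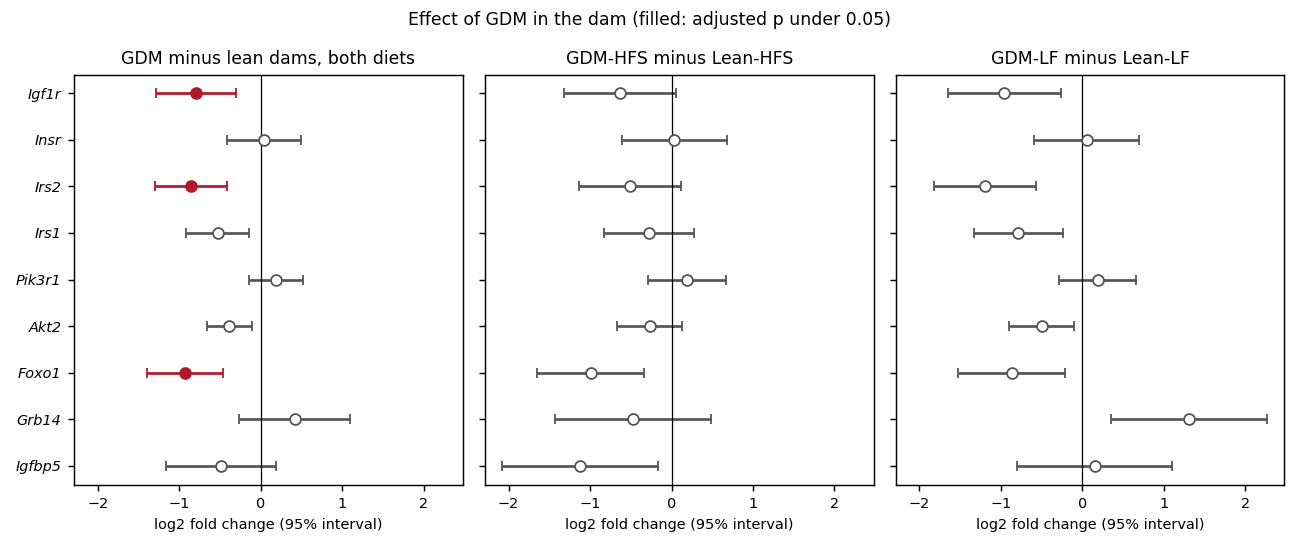
Log2 fold changes of the 9 genes for GDM against lean dams (horizontal axis) with 95% intervals, for HFS-weaned offspring, LF-weaned offspring and the average of both; filled points passed the adjusted threshold of 0.05. Foxo1, Irs2 and Igf1r lie at -0.93, -0.85 and -0.79 for the average, and no point of a single diet is filled.

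Grb14 was lowest in Lean-LF and Igfbp5 in GDM-HFS, and neither passed the limma test in any of the 7 comparisons. Grb14 (chromosome 3, 57578228 to 57695025, minus strand, 1920 bases) rested on 6 to 40 reads per library, so its values carry a large counting error. It stood at 7.19, 7.96 and 3.46 in GDM-HFS, at 7.53, 11.2 and 4.08 in GDM-LF, at 6.27, 9.15 and 10.9 in Lean-HFS, and at 2.13, 3.48 and 1.5 in Lean-LF. The 3 Lean-LF libraries lay below all 3 GDM-LF libraries and below all 3 Lean-HFS libraries. For Lean-HFS against Lean-LF, 3.68% of tested genes were higher and 3.95% lower without overlap, and Igfbp5 was the member lower without overlap. The log2 fold change was 1.31 ± 0.44 for GDM-LF against Lean-LF (SE, adjusted p = 0.0928) and 1.55 ± 0.44 for Lean-HFS against Lean-LF (adjusted p = 1.00). Both share the Lean-LF libraries. The GDM effect differed between diets by -1.78 ± 0.63 and did not pass the test (interaction, adjusted p = 0.784).

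Igfbp5 (chromosome 9, 79924622 to 79937205, minus strand, 1621 bases) stood at 14.2, 31.2 and 15.6 in GDM-HFS, at 99.7, 122 and 29.1 in GDM-LF, at 47.9, 37.0 and 43.7 in Lean-HFS, and at 74.8, 60.5 and 57.3 in Lean-LF. The 3 GDM-HFS libraries lay below the 3 Lean-HFS libraries, but GDM-LF 3, at 29.1, lay below GDM-HFS 2, at 31.2. For GDM-HFS against GDM-LF the log2 fold change was -1.84 ± 0.44 and did not pass after adjustment (SE, limma adjusted p = 0.470). DESeq2 on the recovered reads gave an adjusted p of 0.0133 there, and limma without GDM-LF 3 gave 0.0323. The other 24 of 26 alternatives did not pass, with an adjusted p of 0.407 in edgeR. Without GDM-LF 3, the GDM-LF group holds K libraries only. Without the K libraries, which leaves GDM-LF 3 alone in its group, the log2 fold change was -0.45. Averaged over dams, the log2 fold change for HFS against LF weaning was -1.21 ± 0.31 (adjusted p = 0.883).

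Igfbp5 is also made by stromal cells. The mean log2 level of 10 stellate and fibroblast markers ran from 4.67 to 5.30 in GDM-HFS, from 5.53 to 7.87 in GDM-LF, from 4.71 to 6.11 in Lean-HFS and from 5.16 to 6.15 in Lean-LF. The highest level was in GDM-LF 1, where Igfbp5 stood at 99.7, yet GDM-LF 2 had 122 at a marker level of 5.71. Over the 12 libraries Igfbp5 and this level had a Pearson correlation of 0.59. The part of stromal cells in the Igfbp5 values was not tested.

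Irs2 was lower without overlap on both weaning diets, and the other genes that separated differed by diet, with no interaction past the test. For GDM-HFS against Lean-HFS, Igf1r, Irs2, Foxo1 and Igfbp5 had all GDM libraries below all lean ones, 4 of 9 where 12.1% of tested genes did so. For GDM-LF against Lean-LF, Irs1, Irs2 and Akt2 did, 3 of 9 where 12.4% of tested genes did so, and Grb14 was higher without overlap, as were 12.9% of tested genes. Limma called 0 members on either diet. On the LF diet 1.58% of tested genes were called, and 6 of 9 members had an unadjusted p under 0.05, as did 3278 of 12339 tested genes (26.6%). On the HFS diet 0.0081% of tested genes were called, and 2 of 9 members had an unadjusted p under 0.05, as did 1758 tested genes (14.2%). In the LF diet comparison edgeR called 0 of all genes, while DESeq2 called 1684 genes and 5 members, with Igf1r, Irs1, Irs2 and Foxo1 lower and Grb14 higher. In the HFS diet comparison both called 0 members.

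None of the 9 genes passed the limma test for the weaning diet. Limma called 0 genes of 12339, a share of 0%, for Lean-HFS against Lean-LF and for GDM-HFS against GDM-LF. It also called 0 for HFS against LF weaning averaged over dams. At an unadjusted p under 0.05 there were 269, 1188 and 611 genes in these comparisons, and edgeR called 0 genes in each while DESeq2 called 1, 33 and 2. The same holds for the interaction of dam and diet, with 0 genes called by limma, edgeR and DESeq2 and 730 at an unadjusted p under 0.05 in limma. Among offspring of lean dams, 7 of the 9 log2 fold changes for the diet lay between -0.41 and -0.09.

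Igf1r, Irs1, Irs2 and Foxo1 varied together across libraries. The Pearson correlation of log2 values over the 12 libraries was 0.91 between Igf1r and Irs2, 0.88 between Igf1r and Foxo1, 0.83 between Irs1 and Irs2 and 0.83 between Irs1 and Foxo1. The lowest among all pairs was -0.57, between Irs2 and Pik3r1. The libraries share depth scaling, cell makeup and RNA quality, so these are descriptions with no test.

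Library measures varied along with the called genes. Across the 12 libraries the length measure had a Pearson correlation of -0.95 with Foxo1, -0.87 with Igf1r, -0.84 with Irs1 and -0.77 with Irs2, but 0.17 with Insr and 0.28 with Pik3r1. Among the 6 libraries of GDM dams it was -0.90 with Foxo1 and -0.24 with Irs2, and among the 6 of lean dams -0.86 with Foxo1 and -0.94 with Irs2. Insr and Pik3r1, not called, had opposite signs by dam. Their correlations were 0.55 and 0.47 among GDM dams, and -0.75 and -0.96 among lean dams. Lean-LF 3, with the highest length measure of the lean dams at -0.08, had the lowest Foxo1, Igf1r and Irs2 of these 6 libraries. GDM-HFS 3, with the highest measure of all at 0.74, had the lowest Foxo1, at 45.6.

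Fold changes also varied with transcript length over the whole table. The median log2 fold change for GDM against lean dams was 0.44 over 1334 genes with transcripts under 1000 bases and -0.21 over 1890 genes with transcripts over 4000 bases, of which 13.5% were called lower. Igf1r, Irs2, Irs1 and Insr are in the long class, and Foxo1 is not. Irs1 stood at -0.53 without passing the test, and Insr, at 0.04, did not share the lower values. With each library's trend on transcript length removed, Foxo1 still passed, at -0.82 (adjusted p = 0.0385), while Irs2 stood at -0.61 (adjusted p = 0.0566) and Igf1r at -0.58 (adjusted p = 0.0835).

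**Figure D3:**
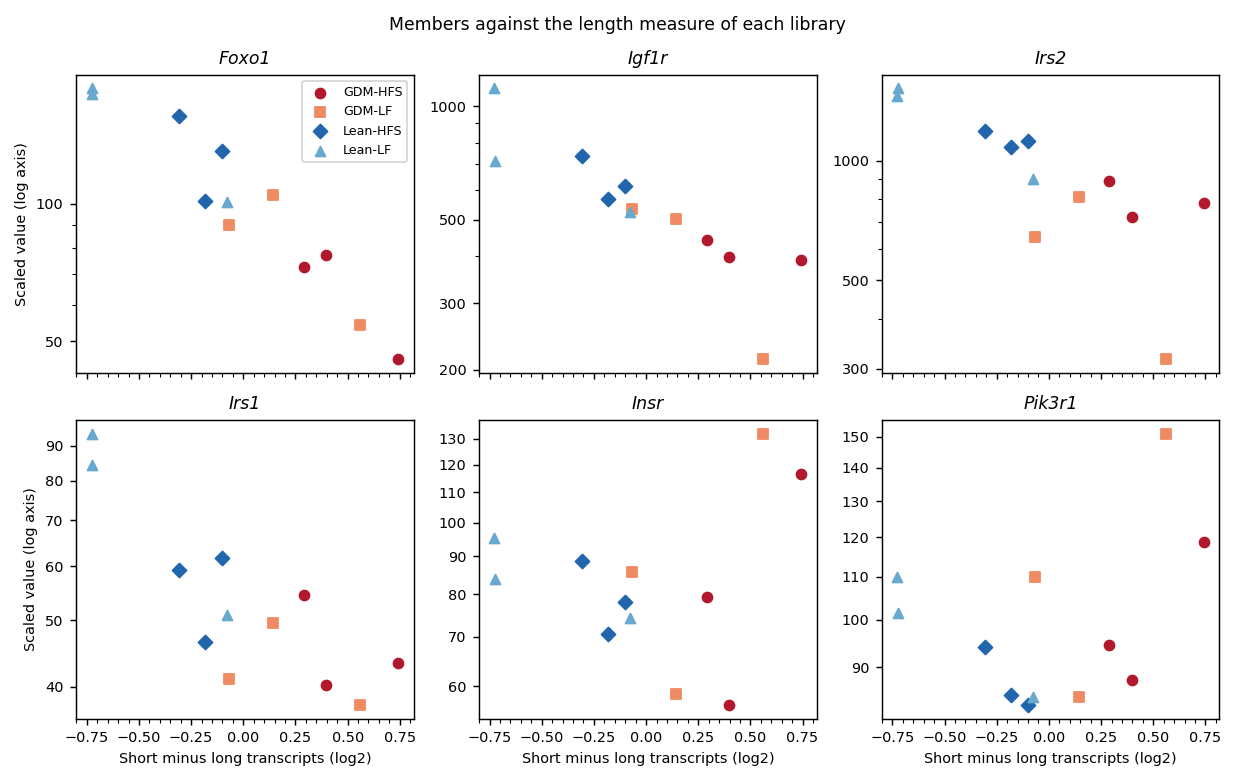
Scaled values of 6 of the genes (vertical axes, log scale) against the length measure of each library (horizontal axes, log2), with colour and marker for the group. Foxo1 falls along the whole axis with a Pearson correlation of -0.95 over 12 libraries, while Insr, at 0.17, shows no such line over all 12. Within dams, Insr is at -0.75 in libraries of lean dams and 0.55 in those of GDM dams.

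Marker levels of acinar and beta cells varied with the called genes. The mean log2 level of 16 acinar markers ran from 12.4 to 13.4 in GDM-HFS, from 10.8 to 14.9 in GDM-LF, from 10.9 to 13.4 in Lean-HFS and from 10.2 to 11.8 in Lean-LF. That of 7 beta cell markers ran from 9.44 to 10.0 in GDM-HFS, from 8.97 to 9.93 in GDM-LF, from 9.77 to 10.4 in Lean-HFS and from 9.91 to 10.4 in Lean-LF. The islet hormone level ran the other way, at a mean log2 level of 16.0 in GDM-HFS, 15.6 in GDM-LF, 15.5 in Lean-HFS and 14.9 in Lean-LF. Ins1, Iapp, Gcg and Ppy followed this order of groups, and Ins2 and Sst did not. In that order, Ppy stood at 18007, 12498, 9405 and 2495, and Ins2 at 579118, 437138, 521974 and 438701. Ins1 and Ins2 together made up 32.8%, 28.9%, 31.1% and 29.9% of the gene reads other than rRNA. The mean log2 level of the adipocyte list was above all lean libraries in every library of GDM dams. It ran from 5.27 to 5.75 in GDM-HFS and from 5.49 to 6.44 in GDM-LF, against 4.62 to 5.26 in Lean-HFS and 4.71 to 5.03 in Lean-LF. Of this list, Lep was at 0 in 11 of 12 libraries, Plin1 in 9 and Adipoq in 4. Irs2 had a Pearson correlation of 0.91 with the beta cell level, and Foxo1 and Igf1r 0.86 each. With the acinar level it was -0.62 for Irs2, -0.72 for Foxo1 and -0.68 for Igf1r. With the stellate and fibroblast level it was -0.27, 0.03 and 0.006 in the same order.

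With the acinar level as a covariate, the log2 fold changes were -0.71 for Foxo1, -0.63 for Irs2 and -0.57 for Igf1r. With the rRNA level as a covariate they were -0.43, -0.37 and -0.27, and no gene of the whole table passed. Without the 3 K libraries they were -0.62, -0.57 and -0.59. The sign was thus the same in all 3 settings, and the size smaller. What part length, rRNA or acinar RNA had in the lower values was not tested.

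**Figure D4:**
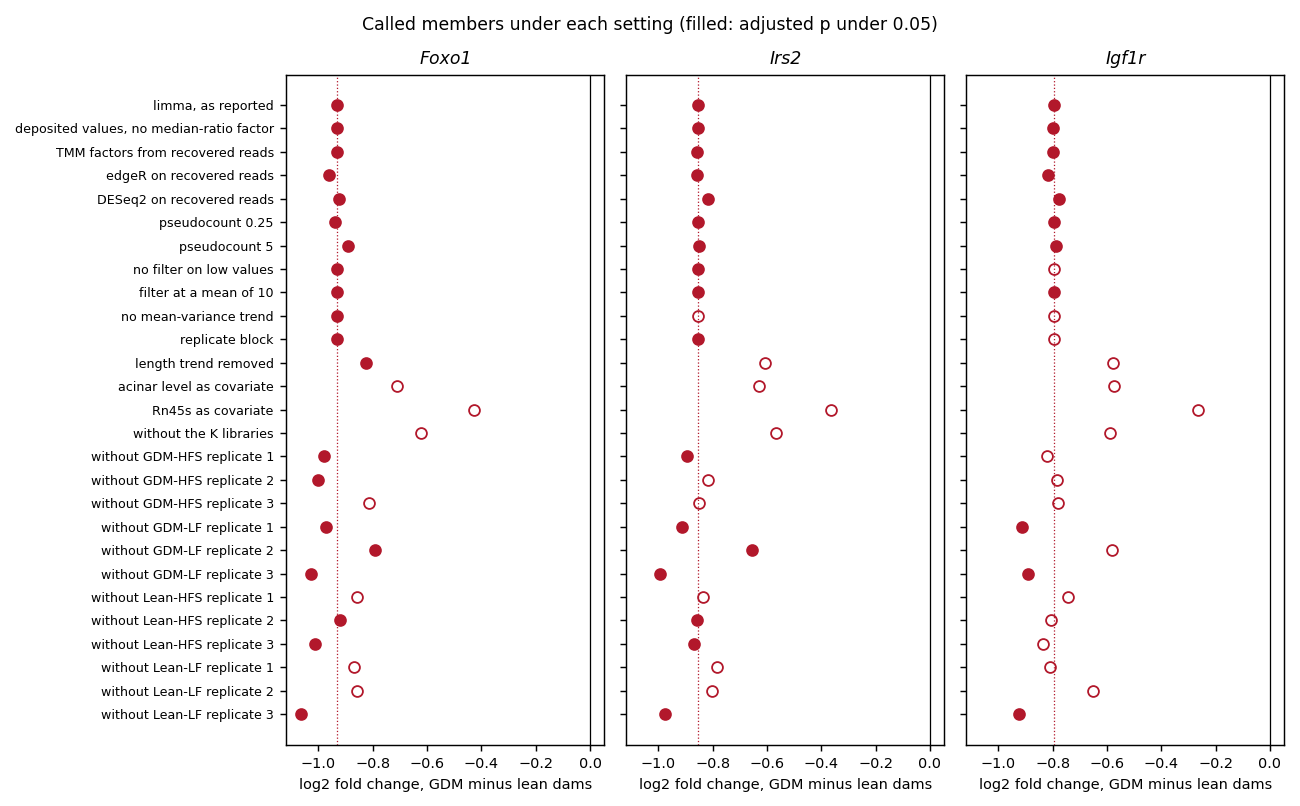
Log2 fold change for GDM against lean dams (horizontal axes) of Foxo1, Irs2 and Igf1r under each setting (vertical axis); filled points have an adjusted p under 0.05 and the dotted line is the value as reported. All points lie below 0, and those with rRNA as a covariate lie closest to it, at -0.43, -0.37 and -0.27.

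For each member, the 2 tested genes with the most similar profile were found by Pearson correlation of log2 values over the 12 libraries. For Irs2 they were Slc23a2 and Abcc4, both at 0.98. For Igf1r they were Tmem178b at 0.97 and Bsn at 0.96, for Irs1 Sec16a at 0.97 and Phf8 at 0.96, and for Foxo1 Cpeb4 and Vezf1, both at 0.97. The other members had looser matches, from 0.84 to 0.92. These were Slc38a3 and Ppp1r37 for Akt2, Gstm2 and Tead3 for Pik3r1, Nfatc2 and Gas2l1 for Insr, Slc52a3 and Mbnl3 for Grb14, and Hif1a and Zeb2 for Igfbp5. Each is the top of 12339 genes, so a high value is built into the choice.

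The wider pathway was read from lists of ligands, receptors, adaptors, PI3-kinase and Akt genes, inhibitors, IGF binding proteins with their proteases, FoxO factors, mTOR and GSK3 genes, and Ras and MAP kinases. Of their 67 genes besides the 9 members, 61 were tested for GDM against lean dams averaged over diets, and 2 rose, 5 fell and 54 did not pass, where 6.13% of all tested genes rose and 5.43% fell. Their median log2 fold change was -0.17, against 0.03 over all tested genes, and 40 of the 61 lay below 0. Irs4, Pik3cg, Pappa2, Foxo6, Rictor and Deptor were not analysed here.

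Among 4 ligands, Igf2, a growth factor of fetal life, fell, at 226 ± 10.4 in GDM-HFS and 201 ± 39.8 in GDM-LF, against 307 ± 55.2 in Lean-HFS and 373 ± 98.4 in Lean-LF (SD, n = 3 each). Its log2 fold change was -0.65 ± 0.16 (SE, adjusted p = 0.0232). Among 7 Ras and MAP kinase genes, 1 rose and 3 fell. Mapk3, which encodes ERK1, and Map2k2, a kinase upstream of it, fell by 0.64 and 0.46 on the log2 scale (adjusted p = 0.0338 and 0.0315). Hras, which encodes a Ras GTPase, rose by 0.51 (adjusted p = 0.0477). With the length trend removed, Map2k2 and Mapk3 still passed (adjusted p = 0.0309 and 0.0464), while Hras and Igf2 did not. With the acinar covariate, with the rRNA covariate and without the K libraries, 0 genes of the pathway lists passed, these 4 and the members included.

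Of 11 mTOR and GSK3 genes 1 fell: Tsc2, whose product holds mTOR complex 1 in check, at a log2 fold change of -0.52 (adjusted p = 0.0351). Of 9 IGF binding protein and protease genes 1 rose: Igfbp6, at 1.62 (adjusted p = 0.0485). Igfbp6 rested on few reads, with scaled values of 1.80, 3.23 and 3.46 in GDM-HFS, of 10.2, 12.35 and 0.583 in GDM-LF, of 0, 0 and 0.911 in Lean-HFS and of 1.06, 0.869 and 0.997 in Lean-LF. None of 10 PI3-kinase and Akt genes or 13 inhibitors passed.

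Of 19 FoxO target genes, 18 were tested, and 1 rose and 4 fell, where 6.13% of all tested genes rose and 5.43% fell. The median log2 fold change of the 18 was 0.04. The list thus did not move one way. Sod2, the mitochondrial superoxide dismutase, rose by 1.09 ± 0.21 (SE, adjusted p = 0.0124). Sesn2, a stress-induced inhibitor of mTOR signalling, fell by 0.95 (adjusted p = 0.0146), Cat, which encodes catalase, by 0.98 (adjusted p = 0.0335), and Ppargc1a, a coactivator of mitochondrial genes, by 0.87 (adjusted p = 0.0339). Irs2 is the other target that fell. Sod2 and Sesn2 kept their adjusted p under the threshold with the length trend removed, at 0.0287 and 0.0313, and with the acinar level as a covariate, at 0.0330 and 0.0424, but not with rRNA as a covariate or without the K libraries. Of the 16 targets with a promoter entry, 3 held GTAAACA or its reverse complement: Insr, Bcl2l11 and Trim63.

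**Figure D5:**
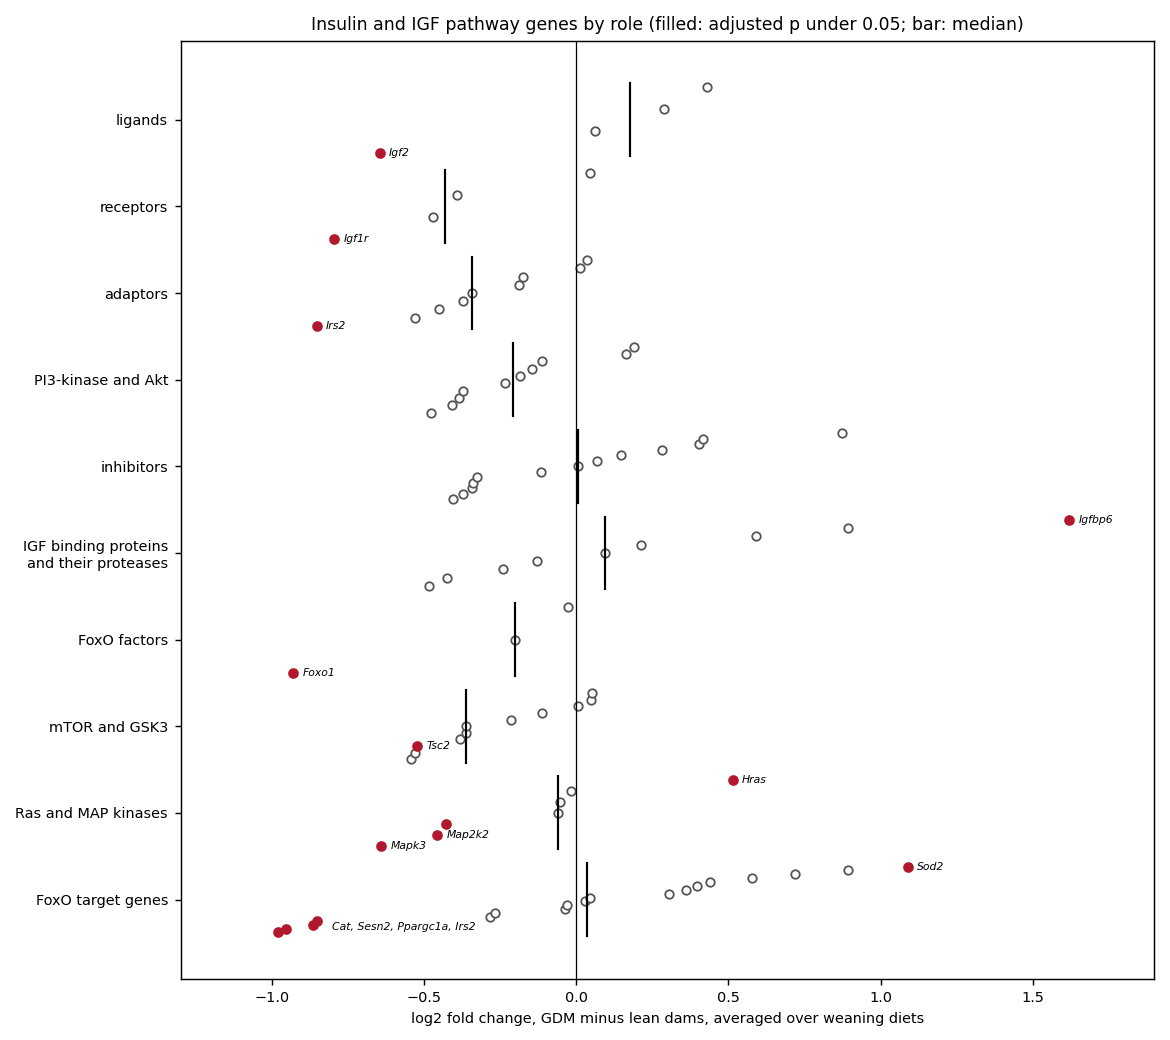
Log2 fold change for GDM against lean dams, averaged over diets (horizontal axis), for tested pathway genes by role (rows), with vertical bars at each list's median; filled points passed the adjusted threshold, and 1 of them has no name. Filled points of the signalling roles are 8 falls, 3 of them members, and 2 rises. Besides the members, 5 of 61 tested genes fell and 2 rose, where 5.43% of all tested genes fell and 6.13% rose. FoxO targets lie on both sides with a median of 0.04.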

How the data were processed

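Islet RNA from 12 rat offspring was depleted of rRNA and made into strand-specific libraries, per the labels' protocols. The submitters' processing notes name STAR 2.5.1b, HOMER 4.9 and DESeq2, the last without a version. The deposited table was counted over exons of rat build rn5 on both strands, 1 entry per gene, per the file headers, and no other entry overlapped any of the 9 genes. As deposited by the authors, each value is a depth-scaled signal, which the header calls FPKM although it is not per length. Every library's values are whole multiples of 1 step, which recovered whole reads for 100% of those checked (at most 1000 reads, within 0.1 of a read). On these reads edgeR 4.0.16 called 1487 and DESeq2 1.42.0 called 2237 genes for GDM against lean dams. The header's command lists the libraries of each group in another order than the columns do. Groups are the same in both, but replicate numbers and the letter K rest on the column names.

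Values were divided by median-ratio factors (0.83 to 1.27), and 12339 genes with a mean of at least 1 were tested with limma 3.58.1 in R 4.3.3. The model was fitted to log2(value + 1), which understates changes of low genes, with 1 mean per group and a mean-variance trend. In each of the 7 contrasts the Benjamini-Hochberg method gave adjusted p-values, called under 0.05. The design had assumed FPKM, and the log-scale test was kept. A value of 1 stands for 1.96 to 5.02 reads, so depth limits Grb14 and Igfbp6 most.

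The members and lists were chosen with earlier results of these data known. Named were all 9 members, pathway genes past the threshold (at most 6 per list, by lowest p), and the 2 genes most like each member. A gene that this rule takes is counted but not reported by name here. Alternatives covered the test, scaling, pseudocount, filter, trend, replicate block, covariates and left-out libraries.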

Additional observations from a re-analysis of the deposited data

How the results depend on the processing

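The sign of Foxo1, Irs2 and Igf1r for GDM against lean dams was the same in all 26 alternatives, a total of 78 values. They stayed past the threshold in 45 of these and not in 33. Foxo1 stayed in 19, Irs2 in 16 and Igf1r in 10 of the 26 alternatives. The count of members called there was 3, and it was 1 without a mean-variance trend, 1 with the length trend removed, and 0 with an acinar covariate, with an rRNA covariate or without the K libraries. With each library left out it ran from 0 to 4. It was 0 without GDM-HFS 3, Lean-HFS 1, Lean-LF 1 or Lean-LF 2, and 1 without GDM-HFS 2. For GDM-LF against Lean-LF the count was 0, and it was 2 without rescaling, 5 with DESeq2 and 1 with a filter at a mean of 10. With each library left out it ran from 0 to 4, with 3 without GDM-LF 3 and 4 without Lean-LF 3. For GDM-HFS against GDM-LF it was 0, and 1 with DESeq2, and it ran from 0 to 1 with each library left out. The causes were not tested. Of 1550 values of members not called, 91 changed sign and 21 passed the threshold.

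The count over all pathway lists was 10, members included, and its alternatives were chosen after seeing the data. It was 4 without rescaling, 17 with DESeq2, 6 with no filter, 1 without a trend, 3 with the length trend removed, and 0 with the acinar level or rRNA as a covariate or without the K libraries. With each library left out it ran from 0, without Lean-HFS 1, Lean-LF 1 or Lean-LF 2, to 19, without Lean-LF 3. It was 1 without GDM-HFS 2 or GDM-HFS 3, and 4 without GDM-HFS 1 or GDM-LF 2. Over all genes, 1426 passed, against 588 with the length trend removed, 474 with the acinar covariate and 0 with the rRNA covariate or without the K libraries.

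Same-numbered libraries did not pair: over 18 pairs the correlation of their deviations ran from -0.50 to 0.20, with 5 over 0.1, and 5 of 12 libraries correlated best with their own number. With the replicate number as a block, 2 members were called for GDM against lean dams (Irs2 and Foxo1), 0 in the other comparisons, and 7 pathway genes.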
